A study of Mus musculus with 9 samples.

Results

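The 37 autophagy genes described here encode the machinery that builds the autophagosome and the receptors that carry cargo into it. They were chosen by gene name, as the rows of the expression table whose symbol equals a listed name, and all 37 were found, among 24044 named rows of a table of 29801. They stand on 38 rows, because Atg4b has a second row, and 12711 named rows passed a filter on low values, with every one of the 37 genes among them. The RNA came from mouse embryonic stem (ES) cells, and the established lines used, 3 in number, were v6.5, E14 and Oct4 GiP, whose name refers to a reporter of the pluripotency gene Oct4. Every line was grown on gelatin for 2 weeks, at passages 20 to 23, in each of 3 conditions, Serum, 2i and Paused. Paused cells received INK128, an inhibitor of the kinase mTor, at 200 nM over those 2 weeks, and Serum and 2i cells are not labelled with it. 2i usually means inhibitors of MEK and GSK3, and the labels give neither its composition nor the medium in which INK128 was used. Each pairing of a line with a condition was sequenced once, which makes 9 libraries, all from 250 ng of total RNA with ERCC spike-in RNA added. The 3 libraries of a condition are therefore different lines and no line has a repeat library in one condition, so p-values measure how differences between conditions vary over these 3 lines.

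Autophagy encloses cytoplasm in a double membrane and delivers it to the lysosome. The Ulk kinase complex starts it, a class III lipid kinase complex marks the membrane with PI3P, and Atg9 and Atg2 supply lipid. A pair of ubiquitin-like conjugation systems then attaches proteins of the LC3 and GABARAP families to the growing membrane, where cargo receptors bind them. mTor is known to restrain autophagy by phosphorylating Ulk1 and Atg13, and also to keep the transcription factors Tfeb, Tfe3 and Mitf out of the nucleus, which bind the E-box CACGTG in promoters of lysosomal and autophagy genes. Transcript levels do not measure autophagic flux.

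Because of that link to the E-box, the promoters of the genes were read for it. RefSeq (GRCm38.p6) gave a window for 30 of the 37 genes, from 250 bases before the annotated start to 50 bases after it. The motif CACGTG, which reads the same on both strands, stood in 4 of the 30, those of Atg3, Atg5, Atg7 and Atg14, against 7.15% of all such windows and 8.09% of all genes with one. The longer palindrome GTCACGTGAC, which contains that E-box, stood in 0 of the 30, against 0.326% of all windows. A FoxO motif, TGTTTAC, searched on both strands, stood in 0 of the 30 against 3.65% of all windows. A TCF/LEF motif, CTTTGAT, stood in 2 of the 30, Ambra1 and Atg4a, against 3.73%. Of the 4 with an E-box, the windows of Atg7 and Atg14 lie inside the gene models of GENCODE, downstream of the outermost annotated start, and are not shown. The other 2 are printed 5′ to 3′ from 250 bases before the RefSeq start, with the E-box in capitals, since the genes behind them gave different results: Atg5 was lower in Paused than in 2i, and Atg3 was not called in any pair in FPKM. The window of Atg5 runs through the first 5 transcribed bases, and that of Atg3 ends before the GENCODE gene model. A match is a match of letters and was not tested for binding.
Atg3 (chr16:45158579-45158784, plus strand): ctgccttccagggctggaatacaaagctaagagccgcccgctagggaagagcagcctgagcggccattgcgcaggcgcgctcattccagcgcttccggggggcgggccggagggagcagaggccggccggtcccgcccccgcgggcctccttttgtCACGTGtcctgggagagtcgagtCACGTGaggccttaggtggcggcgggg
Atg5 (chr10:44268089-44268343, plus strand): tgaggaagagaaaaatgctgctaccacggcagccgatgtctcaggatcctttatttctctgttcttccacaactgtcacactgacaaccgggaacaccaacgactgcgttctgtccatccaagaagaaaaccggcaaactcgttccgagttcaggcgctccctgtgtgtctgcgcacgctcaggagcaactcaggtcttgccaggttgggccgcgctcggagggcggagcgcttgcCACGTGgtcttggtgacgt
The E-box of Atg5 begins at base -14 of the RefSeq start and those of Atg3 at -94 and -71.

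Levels are FPKM, fragments per kilobase of transcript scaled to library size, as the authors deposited them, and how deeply each library was sequenced is unknown. A library held 11709 to 12112 named genes at 1 FPKM or more. Means are given ± SD over the 3 libraries of a condition (n = 3), and values listed library by library follow the order E14, v6.5, Oct4 GiP. A gene was called when limma's test on log2(FPKM + 1), with the cell line as a block, gave an adjusted p under 0.05 (Benjamini-Hochberg over the 12711 tested genes). Log2 fold changes are on that scale, with limma's standard error, and understate the change of low genes. The table also holds a normalized expression value, which equals FPKM times 1 constant per library. The constants were 3.74, 3.40 and 3.64 in Serum, 3.17, 2.45 and 2.76 in 2i, and 1.81, 1.84 and 1.99 in Paused. On that second scale the median tested gene therefore moved by -0.88 in Paused against Serum, -0.33 in 2i against Serum and -0.56 in Paused against 2i, against -0.01, 0.02 and -0.03 in FPKM. All directions below are in FPKM unless the second scale is named. The libraries carried the ES cell markers fixed for this check, with all 8 at 1 FPKM or more in all 9 libraries. Eef1a1, which any cell needs for translation, has 0 FPKM in each of the 9 libraries, so an exact 0 in this table may be a failed estimate, and no autophagy gene row that passed the filter holds one.

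The autophagy genes differed between conditions about as often as all tested genes did, and 2i most often had the highest mean. The F test of limma over the 3 conditions called 23 of the 37 genes, 62.2%, against 54.8% of all tested genes, so the share called was near the background. The mean was highest in 2i for 21 genes, in Paused for 12 and in Serum for 4, and these are 56.8%, 32.4% and 10.8% of the 37, against 40.7%, 30.1% and 29.2% of all tested genes. Summed over the 37 genes, FPKM was 975, 759 and 914 in Serum, 1319, 1392 and 1272 in 2i, and 935, 976 and 922 in Paused. The 3 libraries of 2i lay above all 6 others in that sum, while Serum and Paused overlapped. By role, the F test called 5 of 5 genes of the LC3 family, 5 of 6 cargo receptors, 7 of 10 conjugation genes, 3 of 5 initiation genes, 2 of 6 of the lipid kinase complex and 1 of 5 of membrane supply. The count of 23 fell to 15 without the Serum library of Oct4 GiP, the 2i library of v6.5, or the Paused library of v6.5 or Oct4 GiP, and to 11 without the 2i library of Oct4 GiP. Over all tested genes the calls fell from 6970 to 4797, 5645, 5097, 5053 and 4895, in that order.

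**Figure D1:**
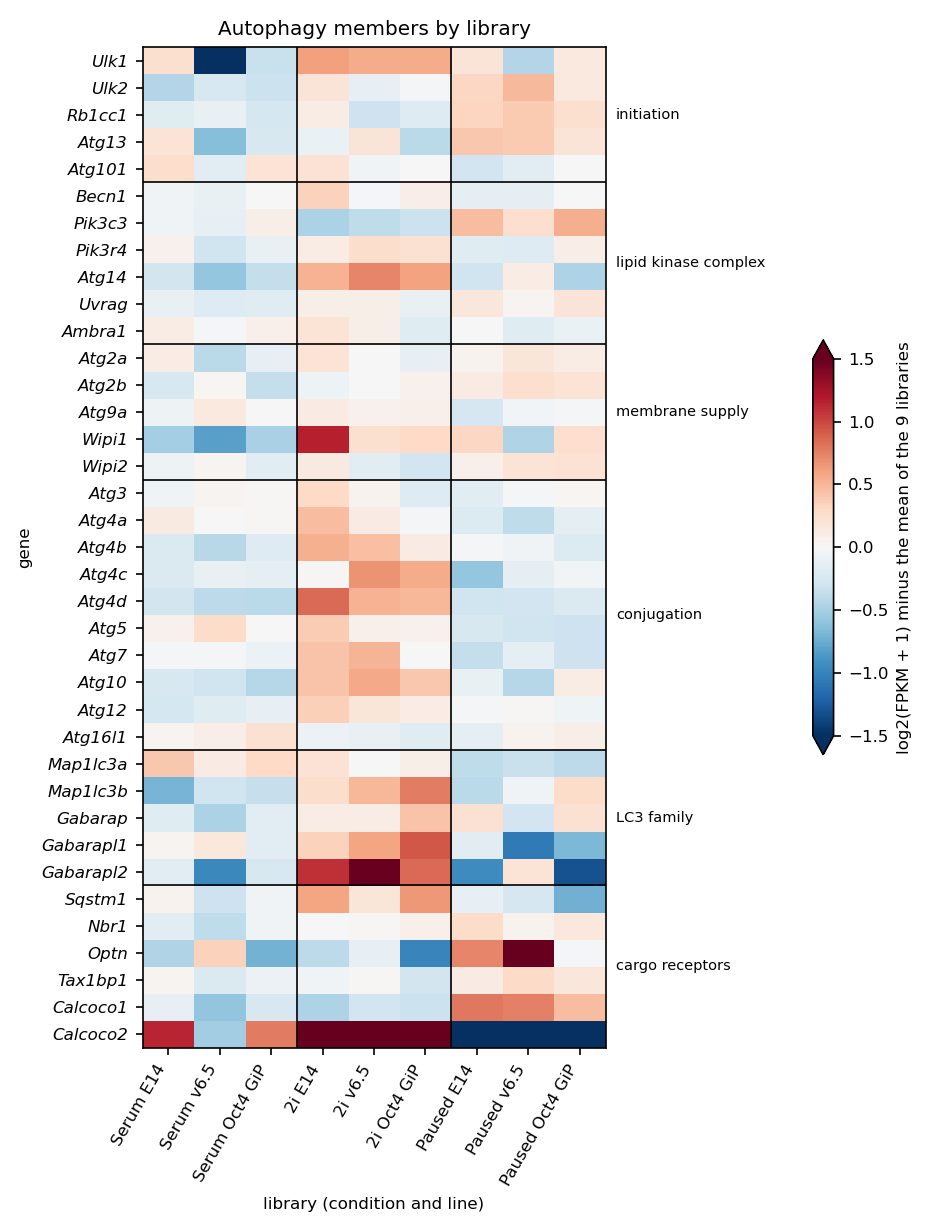
Heat map of the 37 genes (rows, grouped by role) in the 9 libraries (columns, grouped by condition and then line), with colour for log2(FPKM + 1) minus the gene's mean over the 9 libraries. Calcoco2 shows the widest span, from 126.8 FPKM in 2i to 1.39 in Paused, and 9 of the 10 conjugation genes and 4 of the 5 LC3 family genes have their highest mean in 2i.

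2i against Serum gave calls that nearly all went up. It called 14 of the 37 genes, 37.8%, against 40.6% of all tested genes, so the share called was close to the background. Of the 14, 13 were higher and 1 was lower, 35.1% and 2.70% of the 37, against backgrounds of 21.7% and 18.9%. The higher genes were Ulk1, Atg14, Wipi1, Atg4b, Atg4c, Atg4d, Atg10, Atg12, Map1lc3b, Gabarap, Gabarapl2, Sqstm1 and Calcoco2, and the lower one was Pik3c3. The median log2 fold change of the 37 was 0.20, against 0.02 for all tested genes. The 3 libraries of 2i lay above all 3 of Serum for 18 of the 37 genes and below them for 2, against 25.6% and 22.4% of all tested genes. After each library was centred on its median gene, the split was 10 higher and 3 lower. On the authors' normalized scale it was 6 higher and 3 lower, 9 in all, against backgrounds of 9.76% and 35.7%, or 45.5% in either direction, and 0 of the 14 genes called in FPKM changed sign there. The count fell to 9 without the Serum library of v6.5, to 7 without that of Oct4 GiP, and to 8 without the 2i library of v6.5 or that of Oct4 GiP. Over all tested genes the calls fell from 5161 to 3501, 2969, 3714 and 3373, in that order.

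Paused against Serum gave fewer calls, again mostly upward in FPKM. It called 9 of the 37 genes, 24.3%, against 18.2% of all tested genes, with 7 higher and 2 lower, 18.9% and 5.41%, against backgrounds of 7.64% and 10.5%. The higher genes were Ulk2, Rb1cc1, Pik3c3, Map1lc3b, Nbr1, Optn and Calcoco1, and the lower ones were Map1lc3a and Calcoco2. The median log2 fold change of the 37 was 0.18, against -0.01 for all tested genes, and Paused lay above Serum without overlap for 11 genes and below it for 6, against 17.3% and 21.3% of all tested genes. Centred on the median gene of each library, the split was 6 higher and 3 lower. On the authors' normalized scale 0 of the 37 were called higher and 29 lower, against backgrounds of 0.378% and 76.9%, or 77.3% in either direction. There Rb1cc1, Pik3c3, Map1lc3b and Nbr1 had the opposite sign, and 21 of the 37 genes lay above the median of all tested genes and 16 below it. Without any 1 of the Paused libraries, or without the Serum library of Oct4 GiP, limma called 0 of the 37 genes, with 11 to 14 at an unadjusted p under 0.05, and 12 to 38 of all tested genes. Without the Serum library of E14 it called 2, without that of v6.5 it called 3, and without the 2i library of Oct4 GiP it called 5. Over all tested genes these counts were 729, 787 and 1483, against 2311 with all 9 libraries.

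Paused against 2i gave the most calls, and most went down. It called 18 of the 37 genes, 48.6%, against 44.4% of all tested genes. Of these, 4 were higher in Paused (Rb1cc1, Pik3c3, Optn and Calcoco1) and 14 lower, 10.8% and 37.8%, against backgrounds of 19.8% and 24.6%. The lower genes were Atg14, all 4 Atg4 genes, Atg5, Atg7, Atg10, Map1lc3a, Map1lc3b, Gabarapl1, Gabarapl2, Sqstm1 and Calcoco2. The median log2 fold change was -0.23, against -0.03 for all tested genes. Paused lay below 2i without overlap for 17 genes and above it for 7, against 28.3% and 23.6% of all tested genes. On the normalized scale 2 genes were higher and 26 lower, against backgrounds of 6.21% and 54.5%, or 60.7% in either direction, and of the genes called in FPKM only Rb1cc1 changed sign there. The count fell to 10 without the Paused library of E14, and from 5638 to 3543 over all tested genes. Paused against 2i shares its libraries with the other comparisons, so the 3 sets of calls are not independent of each other.

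**Figure D2:**
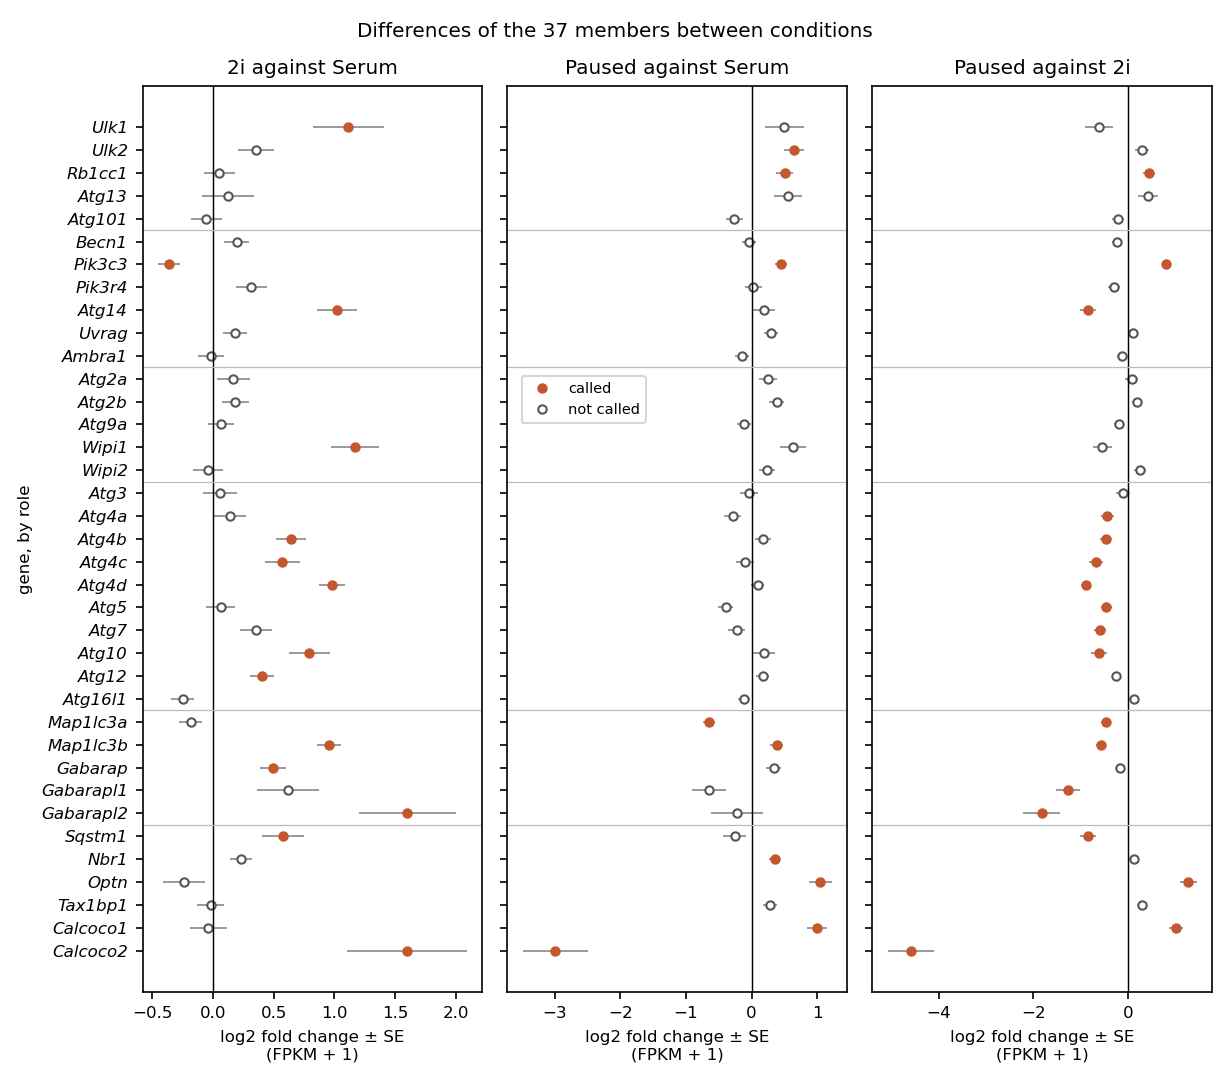
Log2 fold change on log2(FPKM + 1) with its limma standard error (horizontal axis and bars) for each of the 37 genes (vertical axis, by role) in the 3 comparisons, filled where the gene was called. The filled points lie right of 0 in 2i against Serum except for Pik3c3, while in Paused against 2i all called genes of conjugation and the LC3 family lie left of 0.

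The 5 initiation genes gave 2 calls in Paused against Serum, both higher, and 1 higher call in each of the other comparisons. The first is 40% of the 5, against 7.64% of all tested genes called higher, while 1 of 5 is 20%, near the backgrounds of 21.7% (2i against Serum) and 19.8% (Paused against 2i). The complex consists of the kinase Ulk1 or Ulk2, the scaffold Rb1cc1 (also named Fip200), Atg13 and Atg101. Rb1cc1 (chromosome 1, 6206197 to 6276648) was at 5.95, 6.26 and 5.57 FPKM in Serum, at 7.51, 5.34 and 5.88 in 2i, and at 8.81, 9.32 and 8.31 in Paused. All 3 Paused libraries lay above the other 6, and the gene rose against Serum by nearly the same amount in each line, 0.50, 0.51 and 0.50 (log2 fold change 0.50 ± 0.125, adjusted p = 0.041), although on the normalized scale its difference was -0.34. Its exons overlap an antisense gene, and whether fragments were counted by strand is not given. Against 2i it rose by 0.45 ± 0.125 (adjusted p = 0.028), with -0.05 on the normalized scale.

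Ulk2 (chromosome 11, 61775649 to 61855073), the less expressed of the paired kinases, was at 0.369, 0.568 and 0.491 FPKM in Serum, at 1.12, 0.712 and 0.833 in 2i, and at 1.31, 1.60 and 1.06 in Paused. Serum lay below both other conditions, and Paused overlapped 2i. The rise from Serum to Paused was 0.65 ± 0.15 (adjusted p = 0.033), a 2.78-fold ratio of means, and 5 of the 9 libraries lie under 1 FPKM. Ulk2 passed the filter only through its Paused libraries, so its place among the initiation genes called higher in Paused is no independent support. The call was kept with no filter. On the normalized scale the difference was 0.36 and was not called.

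Ulk1 (chromosome 5, 110784488 to 110810097), the kinase that mTor phosphorylates, was at 77.9, 22.4 and 52.0 FPKM in Serum and at 101.4, 97.2 and 97.5 in 2i. The 3 libraries of 2i lay within a narrow band above all of Serum, whose own libraries were far apart with v6.5 lowest. The rise in 2i was 1.11 ± 0.29 (adjusted p = 0.025), and without the line as a block the adjusted p was 0.058. Without the Serum library of v6.5 the rise was 0.73 (adjusted p = 0.047). In Paused it was at 75.35, 48.2 and 72.9 FPKM, between the other conditions on average, and neither difference was called (0.50 ± 0.29 against Serum, adjusted p = 0.27, and -0.61 ± 0.29 against 2i, adjusted p = 0.13). Atg13, the other subunit that mTor phosphorylates, had means of 39.8 ± 11.9 FPKM (Serum), 42.8 ± 8.89 (2i) and 57.35 ± 4.57 (Paused), and Atg101, its binding partner, 64.9 ± 9.90, 62.2 ± 6.63 and 53.7 ± 5.45. Neither was called in any pair.

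The lipid kinase complex contained the only gene of the 37 that was lowest in 2i and highest in Paused with calls in all 3 comparisons. Pik3c3 encodes Vps34, the catalytic subunit. It was at 19.0, 18 and 21.1 FPKM in Serum, at 13.96, 14.9 and 15.6 in 2i, and at 27.4, 23.6 and 29.2 in Paused. The 3 conditions did not overlap. Pik3c3 fell in 2i against Serum by 0.36 ± 0.089 on the log2 scale (adjusted p = 0.020), and rose in Paused by 0.44 ± 0.089 against Serum (adjusted p = 0.025) and by 0.81 ± 0.089 against 2i (adjusted p = 0.0014). On the normalized scale the rise against Serum became a difference of -0.46, which was called lower, while relative to the median gene it was 0.42 higher there.

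Atg14 (chromosome 14, 47540893 to 47570649), the subunit that directs the complex to sites of autophagosome formation, took another course. It was at 14.8, 11.7 and 13.9 FPKM in Serum, at 26.4, 30.55 and 28.1 in 2i, and at 14.5, 19.6 and 12.9 in Paused. All of 2i lay above all other libraries, and Paused overlapped Serum. It rose in 2i by 1.02 ± 0.16 (adjusted p = 0.0051), kept its call when any 1 library was left out, and was lower in Paused than in 2i by -0.84 ± 0.16 (adjusted p = 0.0084). On the normalized scale the rise in 2i was 0.70 and was called. Its exons overlap an antisense gene.

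The remaining subunits varied less. Becn1, the scaffold, averaged 38.6 ± 1.51 FPKM in Serum, 44.6 ± 6.03 in 2i and 37.6 ± 2.24 in Paused. Pik3r4, the regulatory kinase Vps15, averaged 14.6 ± 1.92, 18.3 ± 1.11 and 14.8 ± 1.90, and Uvrag, which replaces Atg14 in the endosomal complex, 8.08 ± 0.288, 9.33 ± 0.811 and 10.15 ± 0.625. Ambra1, which binds Becn1, averaged 23.6 ± 1.31, 23.4 ± 3.32 and 21.2 ± 1.45. None of these 4 was called in any of the 3 pairs in FPKM, with adjusted p from 0.085 (Uvrag, Paused against Serum) to 0.92 (Ambra1, 2i against Serum).

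Of the 5 membrane supply genes only Wipi1 was called, in 1 comparison. It was higher in 2i than in Serum, which makes 20% of the 5, near the background of 21.7%. In Paused against Serum and in Paused against 2i 0 of the 5 were called, against 18.2% and 44.4% of all tested genes. Wipi1 and Wipi2 bind PI3P, Atg2a and Atg2b transfer lipid, and Atg9a is a membrane protein that scrambles lipids. Wipi1 (chromosome 11, 109573331 to 109611967) was at 1.86, 1.30 and 1.90 FPKM in Serum, at 8.13, 3.78 and 3.99 in 2i, and at 4.02, 1.97 and 3.82 in Paused. Serum lay below every library of 2i and Paused, and within each condition v6.5 was lowest. It rose in 2i by 1.17 ± 0.20 (adjusted p = 0.0061), a 3.14-fold ratio of means, with 1.09 on the normalized scale, and it remained called without any 1 library. In Paused its difference from Serum was 0.64 ± 0.20 (adjusted p = 0.071). Wipi2 was far higher at 27.3 to 39.2 FPKM over the 9 libraries, Atg2a was at 14.9 to 23.2, Atg2b at 7.65 to 12.2 and Atg9a at 4.44 to 6.14. The largest of their differences in Paused against Serum was that of Atg2b, 0.38 ± 0.11 (adjusted p = 0.059).

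The conjugation genes called higher were so in 2i. In Paused against Serum 0 of the 10 were called by limma in FPKM, and 1 had an unadjusted p under 0.05. Of all 12711 tested genes 18.2% were called there, and 4606 had an unadjusted p under 0.05. In 2i against Serum 5 of 10 were higher and 0 lower, and in Paused against 2i 7 of 10 were lower and 0 higher. These are 50% and 70% of the 10, against 21.7% of all tested genes called higher in 2i than in Serum and 24.6% called lower in Paused than in 2i. The proteases Atg4a to Atg4d, which trim LC3 and GABARAP proteins and release them from lipid, include 3 of the 5. Atg4d (chromosome 9, 21265293 to 21277772) was at 15.7, 14.4 and 14.3 FPKM in Serum, at 35.4, 27.9 and 27.6 in 2i, and at 15.4, 15.6 and 16.4 in Paused. Serum and Paused overlapped, and every library of 2i lay far above both. Atg4d rose in 2i by 0.98 ± 0.10 (adjusted p = 0.0017), kept its call in all 18 alternatives run on FPKM, and was lower in Paused than in 2i by -0.89 ± 0.10 (adjusted p = 0.00165), also in all 18. On the normalized scale the rise in 2i was 0.65 and was called. Exons of Kri1 overlap it on the other strand.

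Atg4b, the main LC3 protease, rose in 2i from 11.1 ± 0.99 to 17.9 ± 2.69 FPKM (0.64 ± 0.12, adjusted p = 0.0088) and remained called without any 1 library. Atg4c was at 2.12, 2.35 and 2.30 FPKM in Serum and at 2.67, 4.79 and 4.33 in 2i, a rise of 0.57 ± 0.14 (adjusted p = 0.021) that was smallest in E14 (0.24, against 0.79 for v6.5 and 0.69 for Oct4 GiP), and that gave an adjusted p of 0.064 without the block. Atg4a, at 1.52 to 3.50 FPKM in the 9 libraries, was not called in 2i against Serum (0.14 ± 0.14, adjusted p = 0.44). In Paused against 2i all 4 proteases were lower, by -0.43 ± 0.14 for Atg4a (adjusted p = 0.042), -0.46 ± 0.12 for Atg4b (adjusted p = 0.023) and -0.67 ± 0.14 for Atg4c (adjusted p = 0.011) beside Atg4d. The call on Atg4a was lost without the block (adjusted p = 0.052).

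Atg10 and Atg12 were the other conjugation genes higher in 2i. Atg10, the E2-like enzyme that acts on Atg12, was at 0.801, 0.732 and 0.582 FPKM in Serum, at 1.86, 2.17 and 1.83 in 2i, and at 0.981, 0.589 and 1.30 in Paused. Only the 2i libraries lay well above 1 FPKM, and 5 of the other 6 were under it. Atg10 rose in 2i by 0.79 ± 0.17 (adjusted p = 0.012) and was lower in Paused than in 2i by -0.61 ± 0.17 (adjusted p = 0.026). It passed the filter only through its 2i libraries. Its place among the conjugation genes called higher in 2i than in Serum is therefore no independent support. The same holds for its place among those called lower in Paused than in 2i. Both calls were kept with no filter. Atg12, the ubiquitin-like protein itself, rose from 13.6 ± 0.743 to 18.3 ± 1.75 FPKM (0.40 ± 0.10, adjusted p = 0.021), and on the normalized scale the difference was 0.06 and was not called. Its partner Atg5 was at 13.5, 15.8 and 12.8 FPKM in Serum, 17.1, 13.6 and 13.5 in 2i, and 10.7, 10.3 and 10.2 in Paused. Paused lay below all other libraries, with the call against 2i (-0.46 ± 0.12, adjusted p = 0.021) and not against Serum (-0.39 ± 0.12, adjusted p = 0.063).

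Atg7, the E1-like enzyme of both conjugation systems, was at 4.68, 4.705 and 4.45 FPKM in Serum, at 6.78, 7.21 and 4.79 in 2i, and at 3.50, 4.245 and 3.66 in Paused, so that the 3 conditions did not overlap. The call was on Paused against 2i (-0.58 ± 0.13, adjusted p = 0.013), and the adjusted p was 0.068 for 2i against Serum and 0.25 for Paused against Serum. Atg3, the E2-like enzyme for LC3, stayed between 10.8 and 15.6 FPKM in the 9 libraries and Atg16l1, which localises the Atg12-Atg5 conjugate, between 21.04 and 28.3. Neither was called in FPKM. Atg3 was called lower on the normalized scale in Paused than in Serum (-0.95, adjusted p = 0.0043) and than in 2i (-0.65, adjusted p = 0.028), near the all-gene medians of -0.88 and -0.56, and Atg16l1 was called lower in 2i than in Serum on the normalized scale (-0.62, adjusted p = 0.017, against -0.25 in FPKM).

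The LC3 family did not move as a block: in Paused against Serum Map1lc3b rose and Map1lc3a fell. These small proteins are attached to lipid and bind the receptors. Map1lc3b (chromosome 8, 121590361 to 121598760) was at 44.6, 59.1 and 57.1 FPKM in Serum, at 87.7, 103.5 and 124.2 in 2i, and at 54.6, 69.9 and 88.0 in Paused. 2i lay above Serum without overlap, while Paused overlapped both. It rose in 2i by 0.96 ± 0.096 (adjusted p = 0.0016), in all 18 alternatives, and in Paused by 0.38 ± 0.096 (adjusted p = 0.042), which became -0.54 on the normalized scale and was lost without the block (adjusted p = 0.24). E14 was lowest in each condition. Against 2i, Paused was lower by -0.58 ± 0.096 (adjusted p = 0.0049), and 0.052 was the adjusted p without the block. Exons of Zcchc14 overlap Map1lc3b on the other strand.

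Map1lc3a (chromosome 2, 155276297 to 155278073) was at 26.6, 21.6 and 24.7 FPKM in Serum, at 23.1, 19.65 and 21.05 in 2i, and at 14.9, 15.5 and 14.8 in Paused. The Paused libraries lay close together below all others, and Serum and 2i overlapped. It fell against Serum by 0.65 ± 0.094 on the log2 scale (adjusted p = 0.014) and against 2i by 0.47 ± 0.094 (adjusted p = 0.0092). The difference of 2i from Serum was -0.18 ± 0.094 (adjusted p = 0.16), and on the normalized scale it was -0.55 and called.

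Among the GABARAP genes, which act in later steps and fusion, Gabarapl2 reached the highest FPKM of any of the 37 genes in 1 library, 296.9. It (chromosome 8, 111940703 to 111953612) was at 93.8, 53.55 and 89.6 FPKM in Serum, at 227.4, 296.9 and 190.8 in 2i, and at 54.5, 121.8 and 42.2 in Paused. 2i lay above all other libraries, and v6.5 was lowest in Serum but highest in 2i and Paused. It rose in 2i by 1.60 ± 0.40 (adjusted p = 0.021), with 1.24 on the normalized scale and 1.04 (adjusted p = 0.024) without the Serum library of v6.5, and was lower in Paused than in 2i by -1.82 ± 0.40 (adjusted p = 0.012). Against Serum the lines went opposite ways, -0.77 (E14), 1.17 (v6.5) and -1.07 (Oct4 GiP), a difference with no call (-0.22 ± 0.40, adjusted p = 0.72). Gabarap rose in 2i from 47.4 ± 5.59 to 67.1 ± 8.698 FPKM (0.49 ± 0.11, adjusted p = 0.014, and 0.052 without the block). In Paused it was at 67.2, 47.0 and 67.5 FPKM, with no call against Serum (0.33 ± 0.11, adjusted p = 0.077). Gabarapl1 was at 13.55, 14.8 and 11.6 FPKM in Serum, 17.0, 20.4 and 26.0 in 2i, and 11.6, 5.77 and 7.88 in Paused, and the 3 conditions did not overlap, although the highest Paused library (11.57) nearly reached the lowest of Serum (11.61). Its call was on Paused against 2i (-1.26 ± 0.26, adjusted p = 0.0095), and the difference of Paused from Serum was -0.65 ± 0.26 (adjusted p = 0.12).

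On log2(FPKM + 1) the cargo receptors held the largest differences of the 37 genes, up and down, in Paused against Serum and in Paused against 2i, while the largest upward ratio of mean FPKM in Paused against Serum was that of Ulk2 (2.78, against 2.46 for Optn). Calcoco2 is also named Ndp52, and its human counterpart is a receptor for bacteria and mitochondria coated with ubiquitin. Calcoco2 (chromosome 11, 96099326 to 96111964) was at 45.3, 13.7 and 35.0 FPKM in Serum, at 66.2, 126.8 and 77.4 in 2i, and at 3.97, 3.09 and 1.39 in Paused. The 3 conditions did not overlap, and the highest Paused library was at under 4 FPKM in every line. It fell in Paused by 2.99 ± 0.49 on the log2 scale against Serum (adjusted p = 0.017) and by 4.59 ± 0.49 against 2i (adjusted p = 0.0013), the latter in all 18 alternatives and in each line (-3.76, -4.97 and -5.03). In these means Paused held 0.0899 of Serum and 0.03125 of 2i. It rose in 2i against Serum by 1.59 ± 0.49 (adjusted p = 0.043), with per-line differences of 0.54, 3.12 and 1.12. That rise kept its call in 3 of 18 alternatives, was 0.93 (adjusted p = 0.076) without the Serum library of v6.5, and was not called on the normalized scale (1.25, adjusted p = 0.058).

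Within Serum, the level of Calcoco2 had the same order over lines as 3 of 5 marker lists of other cell types. That order was not particular to Calcoco2. The total FPKM of all rows in the Serum libraries had it (2133969, 1682718 and 1944961). Most of that total lies in rows left out of the fit, and the totals of named rows were nearly level. The order was also that of the FPKM summed over the autophagy genes (975, 759 and 914). Calcoco1, which was higher in Paused, had it too (26.4, 18.95 and 24.4 FPKM), while Optn did not (3.45, 6.72 and 2.72). The summed FPKM of 9 markers of fibroblasts used as feeders was 137.6, 31.7 and 68.7 in Serum, 3.89, 4.32 and 5.12 in 2i, and 13.9, 8.77 and 7.40 in Paused. Of the 9, 4 passed the filter, and these 4 were called lower both in 2i and in Paused than in Serum. In each Serum library 4 of the 9 were at 1 FPKM or more, against 1, 2 and 2 in 2i and 3, 3 and 2 in Paused. The filter thus favoured markers high in Serum, and these calls give no independent support. Of all tested genes, 18.9% were called lower than Serum in 2i and 10.5% in Paused, and 7.64% higher in Paused. Lum was listed at 0 in 6 libraries and Postn in 5. The summed FPKM of 8 trophoblast markers was 370.5, 68.8 and 163.6 in Serum, 74.35, 49.3 and 63.0 in 2i, and 52.5, 28.9 and 29.3 in Paused, and 4 of 6 tested markers were called lower in Paused than in Serum and 3 of 6 in 2i. The sum of 4 mesoderm markers was 17.6, 1.94 and 3.80 in Serum, and 2.40 or less in every library of 2i and Paused. E14, Oct4 GiP and v6.5 had the same order, high to low, in these 3 sums and in Calcoco2 within Serum, while in 2i the sums were low and Calcoco2 was at its highest. The other 2 lists had the opposite order in Serum, with v6.5 highest. The sum of 3 neural markers was 28.9, 40.3 and 34.3 in Serum, 8.39, 6.47 and 6.94 in 2i, and 25.2, 30 and 29.7 in Paused, and of the 3, 2 were called higher and 1 lower in Paused than in Serum and 2 lower in 2i. The sum of 6 primitive endoderm markers was 2.65, 3.80 and 3.33 in Serum and 2.04 to 4.73 in the other 6 libraries. The part of such cells in the fall from Serum to Paused was not tested, and in bulk RNA fewer cells with a transcript and less of it per cell cannot be told apart.

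Calcoco1, a paralog of Calcoco2 and a receptor for the endoplasmic reticulum, went the other way in Paused. Calcoco1 (chromosome 15, 102706777 to 102722178) was at 26.4, 18.95 and 24.4 FPKM in Serum, at 20.8, 23.6 and 23.0 in 2i, and at 51.0, 49.7 and 40.45 in Paused. Serum and 2i overlapped, and all of Paused lay above them. It rose by 0.99 ± 0.15 against Serum (adjusted p = 0.015) and by 1.03 ± 0.15 against 2i (adjusted p = 0.0032). On the normalized scale the difference from Serum was 0.09 and was not called, 0.97 above the median of all tested genes.

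Optn, a receptor for mitochondria and bacteria, was at 3.45, 6.72 and 2.72 FPKM in Serum, at 3.61, 4.56 and 2.05 in 2i, and at 9.06, 17.6 and 4.99 in Paused. Paused was highest in each line, but its Oct4 GiP library lay below the Serum library of v6.5, so the conditions overlapped. It rose by 1.04 ± 0.18 against Serum (adjusted p = 0.018, and 0.15 without the block) and by 1.28 ± 0.18 against 2i (adjusted p = 0.0026, and 0.051 without the block), with 0.27 against Serum on the normalized scale, not called. Nbr1, a receptor for aggregates and peroxisomes, was at 36.7, 31.2 and 39.7 FPKM in Serum and at 49.8, 42.8 and 46.0 in Paused. The groups did not overlap, and it rose by 0.36 ± 0.090 (adjusted p = 0.041, and 0.060 without the block), with -0.56 on the normalized scale.

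Sqstm1, which encodes p62, was the receptor that rose in 2i beside Calcoco2. It was at 88.9, 68.9 and 83.1 FPKM in Serum, at 130.1, 97.5 and 135.1 in 2i, and at 78.75, 72.05 and 51.8 in Paused. All of 2i lay above the other 6 libraries, and Serum and Paused overlapped. The rise in 2i was 0.58 ± 0.17 (adjusted p = 0.039), called in 7 of 18 alternatives, and Paused was below 2i by -0.84 ± 0.17 (adjusted p = 0.010). The difference of Paused from Serum was -0.26 ± 0.17 (adjusted p = 0.33). Tax1bp1, a further receptor for ubiquitin-coated cargo, stayed between 36.1 and 54.1 FPKM in the 9 libraries and was not called in any pair in FPKM. Exons of other genes overlap Sqstm1, Optn and Tax1bp1, and 12 of the 37 genes have such an overlap in GENCODE M21.

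**Figure D3:**
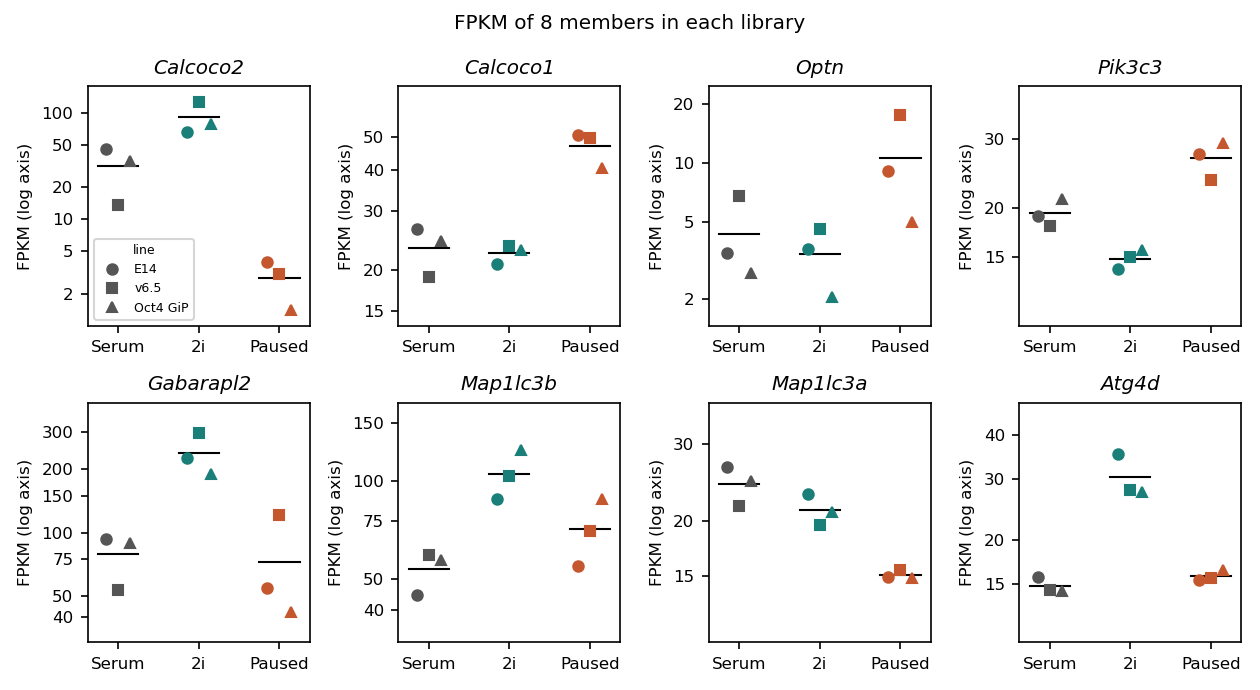
FPKM on log axes for 8 genes in the 9 libraries, with condition on the horizontal axis, marker shape for the line and a bar at the mean of the 3 libraries. Calcoco2 lies under 4 FPKM in Paused and Calcoco1 at 40.45 FPKM or more, while Gabarapl2 in Paused is spread from 42.2 to 121.8 FPKM.

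Shares of each family within a library do not depend on the scale, because a per-library constant cancels. A set of 12 shares was compared over the 3 pairs of conditions, 36 two-sided exact permutation tests of 3 against 3 libraries, whose smallest possible p is 0.1. That p was reached in 14 of the 36, and the smallest adjusted p was 0.26, so none passed 0.05, which the design cannot reach. Calcoco2 made up 54.7 ± 11.2% of the FPKM of Calcoco1 and Calcoco2 in Serum, 79.2 ± 4.48% in 2i and 5.47 ± 1.97% in Paused, without overlap between any 2 conditions (exact p = 0.1 each). Map1lc3a made up 31.5 ± 5.42% of the LC3 genes in Serum, against 17.1 ± 3.33% in 2i and 18 ± 3.52% in Paused, and both lay below Serum without overlap (exact p = 0.1) while they overlapped each other (exact p = 0.8).

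Gabarapl2 made up 55.8 ± 5.90% of the GABARAP genes in Serum and 72.5 ± 6.85% in 2i (exact p = 0.1), and in Paused its share was 40.9%, 69.8% and 35.9% by line. Wipi1 made up 5.05 ± 1.25% of the Wipi genes in Serum, 13.99 ± 3.58% in 2i and 7.98 ± 2.80% in Paused. Atg4d had the largest share of the Atg4 genes, 48.5 ± 1.60% in Serum, 55.1 ± 3.12% in 2i and 48.9 ± 1.33% in Paused, and Atg4a went from 7.83 ± 0.298% in Serum to 4.99 ± 0.604% in 2i and 5.503 ± 0.732% in Paused. Ulk1 held 98.7 ± 1.05%, 99.1 ± 0.188% and 97.9 ± 0.953% of the Ulk pair in Serum, 2i and Paused. The LC3 genes held 36.2 ± 5.78%, 28.1 ± 4.47% and 37.9 ± 7.58% of the LC3 and GABARAP genes together, with overlap in all 3 pairs.

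**Figure D4:**
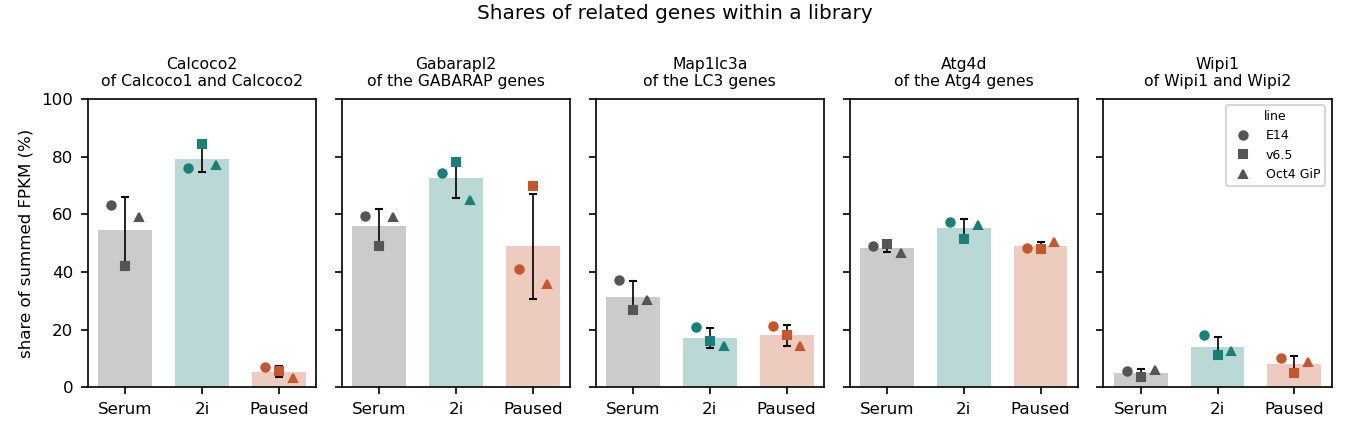
Share of a gene in the summed FPKM of its family (vertical axis, percent), with condition on the horizontal axis, marker shape for the line and a bar at the mean of the 3 libraries. The share of Calcoco2 averages 54.7% in Serum, 79.2% in 2i and 5.47% in Paused, and that of Map1lc3a averages 31.5% in Serum and lies lower in both other conditions.

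Both deposited scales were set side by side for every gene. In 2i against Serum the 14 called genes kept their sign on the normalized scale, and 28 of the 37 genes lay above the median of all tested genes there. In Paused against Serum the 7 genes that rose in FPKM split: Ulk2, Optn and Calcoco1 remained at 0.36, 0.27 and 0.09 above 0 without a call, and Rb1cc1, Pik3c3, Map1lc3b and Nbr1 lay at -0.34, -0.46, -0.54 and -0.56. Calcoco2 at -4.10 and Map1lc3a at -1.58 lay below the all-gene median of -0.88 on that scale. In Paused against 2i Optn (0.89) and Calcoco1 (0.49) were the 2 genes called higher on both scales.

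**Figure D5:**
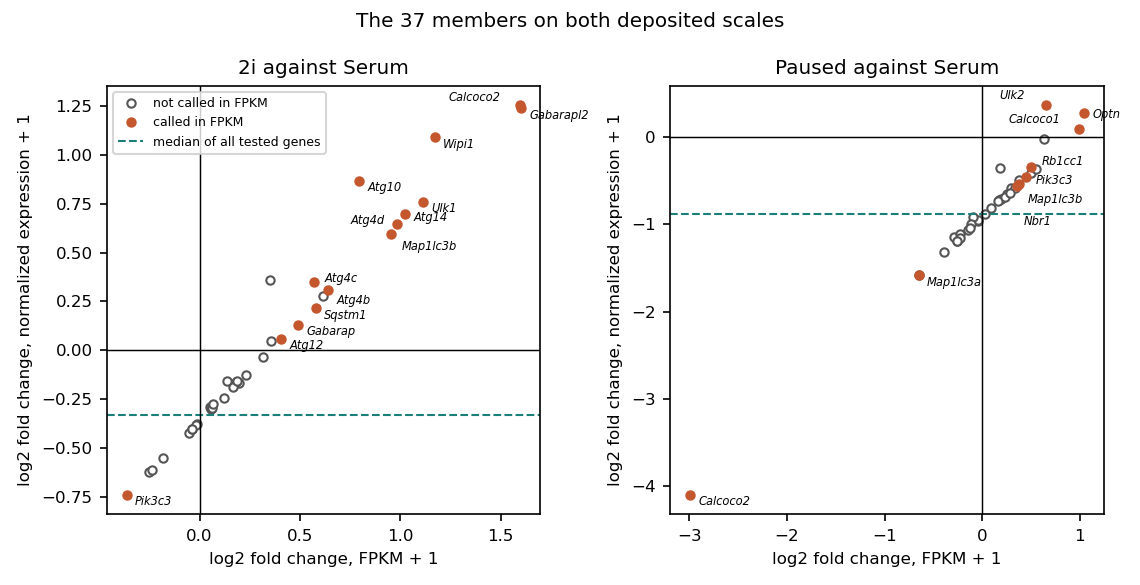
Log2 fold change on log2(normalized expression + 1) against that on log2(FPKM + 1) for the 37 genes, in 2i against Serum and in Paused against Serum, with filled points for genes called in FPKM and a dashed line at the median of all tested genes on the normalized scale. In Paused against Serum the points follow a line shifted down by about the all-gene median of -0.88.

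The lines were compared with condition as a block, and no gene of the 37 was called. The F test of limma over the 3 lines called 0 of the 37, against 1.5% of all tested genes. Of the 37, 5 had an unadjusted p under 0.05, against 2417 of all 12711 tested genes. The lowest adjusted p were those of Optn (0.0605) and Map1lc3b (0.0965), named here after their values were seen. Optn averaged 5.37, 9.64 and 3.25 FPKM in the 3 lines, and v6.5 was highest and Oct4 GiP lowest in each of the 3 conditions. With a pseudocount of 0.1 Optn was called (adjusted p = 0.045). Map1lc3b averaged 62.3, 77.5 and 89.8 FPKM in the 3 lines. Within lines, the median log2 fold change of the 37 genes in 2i against Serum was 0.29, 0.36 and 0.092, and in Paused against Serum -0.03, 0.19 and 0.19.

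Other genes of the pathway were counted as lists. Of 9 tested genes of elongation and contact with the endoplasmic reticulum, 2 were higher in 2i than in Serum and 0 lower: Tecpr1, a tethering factor, rose from 4.6 ± 0.630 to 10.2 ± 1.66 FPKM (0.995 ± 0.10, adjusted p = 0.0017), and Tmem41b, a lipid scramblase, from 11.55 ± 1.45 to 15.5 ± 1.42 (0.40 ± 0.13, adjusted p = 0.048). That is 22.2% of the 9, at the background of 21.7%. In Paused against Serum limma called 0 of these 9, against 18.2% of all tested genes. An unadjusted p under 0.05 was reached there by 0 of the 9 and by 4606 of the 12711 tested genes. In Paused against 2i 3 were lower, 33.3% against 24.6% of all tested genes. The third of these beside Tecpr1 and Tmem41b was Sh3glb1, which bends membranes (-0.37 ± 0.11, adjusted p = 0.036).

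Of 13 genes of fusion with the lysosome, 4 were higher in 2i than in Serum and 0 lower, with Vps39, a subunit of the HOPS tether, at 5.215 ± 0.405 and 8.90 ± 1.41 FPKM (0.66 ± 0.13, adjusted p = 0.0087). The shares are 30.8% and 0%, against 21.7% and 18.9% of all tested genes. In Paused against Serum 0 were higher and 2 lower, both SNARE proteins, 15.4% against 10.5% of all tested genes called lower. Vamp8 fell from 14.4 ± 2.74 to 6.56 ± 1.57 FPKM (by 1.035 ± 0.13 on the log2 scale, adjusted p = 0.013), and Ykt6 from 84.75 ± 5.305 to 57.8 ± 0.440 (by 0.54 ± 0.12, adjusted p = 0.033). In Paused against 2i 0 were higher and 5 lower, 38.5% against 24.6%.

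Receptors bound to organelles gave calls in both directions. Of 15 tested, 4 were higher and 3 lower in 2i than in Serum, 26.7% and 20%, near the backgrounds of 21.7% and 18.9%. In Paused against Serum 2 were higher and 3 lower, 13.3% and 20%, against 7.64% and 10.5%, and in Paused against 2i 2 were higher and 6 lower, 13.3% and 40%, against 19.8% and 24.6%. Bnip3, a mitophagy receptor, was at 10.5 ± 3.56 FPKM in Serum, 2.27 ± 1.86 in 2i and 14.01 ± 5.28 in Paused, and it fell in 2i by 1.92 ± 0.17 on the log2 scale (adjusted p = 0.0013). Fam134b, a receptor for the endoplasmic reticulum, rose in 2i from 0.792 ± 0.315 to 3.96 ± 0.674 FPKM (1.47 ± 0.15, adjusted p = 0.0017). Tex264, also a receptor for the endoplasmic reticulum, was at 35.8 ± 11.4 FPKM in 2i and 14.6 ± 3.50 in Paused (-1.22 ± 0.35, adjusted p = 0.030).

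The 11 regulators had 5 higher and 2 lower genes in 2i than in Serum, 45.5% and 18.2%, against 21.7% and 18.9% of all tested genes. In Paused against Serum 3 were higher and 0 lower, 27.3% and 0%, against 7.64% and 10.5%, and in Paused against 2i 3 were called in each direction, 27.3% each, against 19.8% and 24.6%. Mitf, of the family that binds the E-box, was at 1.38 ± 0.983 FPKM in Serum, 8.27 ± 0.537 in 2i and 2.04 ± 0.823 in Paused, and rose in 2i by 2.04 ± 0.25 (adjusted p = 0.0024). Tfe3, of the same family, went the other way, at 50.7 ± 6.255 FPKM in Serum, 32.0 ± 2.25 in 2i and 55.9 ± 3.595 in Paused. It was lower in 2i than in Serum (-0.64 ± 0.12, adjusted p = 0.0074) and higher in Paused than in 2i (0.79 ± 0.12, adjusted p = 0.0032). Tfeb was not called in any pair (adjusted p from 0.12 to 0.58). Foxo3, a FoxO factor, rose in 2i from 14.4 ± 0.685 to 32.1 ± 5.94 (1.09 ± 0.12, adjusted p = 0.0019) and in Paused to 23.9 ± 2.84 (0.69 ± 0.12, adjusted p = 0.020), with -0.20 for Paused on the normalized scale. Its relative Foxo1 was at 10.1 ± 2.98 FPKM in Serum, 5.94 ± 0.890 in 2i and 13.6 ± 1.87 in Paused, fell in 2i by 0.66 ± 0.12 on the log2 scale (adjusted p = 0.0081) and was 1.08 ± 0.12 higher in Paused than in 2i (adjusted p = 0.0015).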

How the data were processed

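RNA of 9 libraries was measured, 1 per cell line (E14, v6.5, Oct4 GiP) in each of Serum, 2i and Paused, after mRNA purification and a strand-marking library kit, as the labels' protocols state. FPKM values were deposited by the authors, made with Cuffnorm on the mm10 build, per the submitters' processing notes. The aligner, the annotation, strand use in counting and the scaling between libraries are not named there or in the labels. The authors also deposited normalized expression, a signal equal to FPKM times 1 constant per library (largest relative deviation 3.3e-16), with no stated source for the constant. No counts are in the table, so depth is unknown.

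Of 29801 rows, 5644 (18.9%) carry no gene name and 113 repeat another row, and these were left out. In every library the rows left out held most of the summed FPKM, in a share that differed between libraries. The 12711 named rows with 1 FPKM or more in at least 3 libraries were fitted with limma-trend (limma 3.58.1, R 4.3.3) on log2(FPKM + 1), cell line as a block, all 9 libraries in 1 fit, Benjamini-Hochberg over all rows, threshold 0.05. The fit was tested on simulated data. The pairing comes from the labelled line: deviations from condition means correlated at -0.001 to 0.401 within lines and -0.243 to 0.094 between lines. Shares were compared by exact permutation tests (scipy 1.17.1). Of Atg4b, the row that passed the filter was used. Positions come from GENCODE M21 on the same build and promoters from RefSeq GRCm38.p6. Fold changes are named for called genes and, where a role had none, for up to 2 with the largest change, and for the 3 called genes with the largest change in any comparison per other list. Tfe3 and Tfeb are named beside Mitf as members of its family. Rubcn was not found by name. Retreg1 is another symbol of Fam134b, and the gene was found as Fam134b only. The genes and lists were chosen with earlier results of these data known. Alternatives were another pseudocount, no filter, no block, no variance trend, centring on the median gene, leaving out libraries or lines, and only the 6 libraries of a pair.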

Additional observations from a re-analysis of the deposited data

Results flagged for a closer look

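Gabarapl2 moved in opposite directions between lines in Paused against Serum. The log2 difference was -0.771 (E14), 1.17 (v6.5) and -1.07 (Oct4 GiP), with 1 library per line and condition. The difference between lines was not tested. In each other comparison the 3 lines had the same sign for this gene. Groups of 3 libraries are too small for a check of single outlying samples.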

How the results depend on the processing

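Of the log2 fold changes called in FPKM, 0 changed sign in any alternative run on FPKM. Over members and alternatives, 71 of 162 values kept their call in Paused against Serum, 178 of 252 in 2i against Serum and 258 of 324 in Paused against 2i. Left called without each library in turn were 0 of 9, 5 of 14 (Atg14, Atg4b, Atg4d, Wipi1 and Map1lc3b) and 10 of 18 genes. Leaving out 1 library or 1 line, the counts ran from 0 to 12 in Paused against Serum, from 4 to 14 in 2i against Serum, from 7 to 20 in Paused against 2i, from 5 to 21 for the F test over conditions, and from 3 to 19 for 2i against Serum on the normalized scale. With only the 6 libraries of the pair, 2i against Serum gave 9. With a pseudocount of 0.1 the F test over lines called 1 gene. Fewer libraries also lowered the calls over all genes. Without the replicate block, which pairs libraries by line, the counts were 6, 11 and 15 in the 3 comparisons and 19 for the F test over conditions; the calls lost were those on Map1lc3b, Nbr1 and Optn, on Ulk1, Atg4c and Gabarap, and on Atg4a, Map1lc3b and Optn. Centred on the median gene, the calls on Nbr1 in Paused against Serum, on Atg12, Sqstm1 and Calcoco2 in 2i against Serum and on Atg4a in Paused against 2i were lost (adjusted p 0.0518 to 0.0824). With no filter the counts were 6, 12 and 16. Over all genes tested in each setting, the calls in the 3 comparisons were 2311, 5161 and 5638 in the main fit. They were 1602, 4368 and 4797 without the block, 2428, 5444 and 5825 when centred, and 1641, 5379 and 5772 with no filter. The F test over conditions called 6970 genes in the main fit and 5886 without the block. Depth in reads is unknown and 3 lines per condition limit the precision.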

Other observations

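The 37 genes made up 0.127%, 0.0995% and 0.120% of the FPKM summed over named genes in Serum (E14, v6.5, Oct4 GiP), 0.176%, 0.206% and 0.170% in 2i, and 0.128%, 0.142% and 0.124% in Paused. Every library of 2i lay above every other library, and Paused lay above Serum in all 3 lines, by little in E14. Genes of high level, such as Gabarapl2, weigh most in these shares. The second row of Atg4b, which did not pass the filter, was at 0.462, 0.664 and 0.254 FPKM in Serum, 0.857, 0.930 and 0.461 in 2i, and 0.986, 1.20 and 0.515 in Paused, where each line was at its highest. Its row with the higher level was lower in Paused than in 2i, and the table does not say whether the 2 rows stand for different transcripts.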
